A study of Mus musculus with 12 samples.

Results

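The description covers 9 liver genes of tryptophan metabolism, *Ddc* and 8 genes that encode enzymes of the kynurenine route (*Tdo2*, *Ido2*, *Afmid*, *Kmo*, *Kynu*, *Haao*, *Acmsd* and *Qprt*). They were taken by symbol from the count tables and make up 9 of 38926 gene symbols. All 9 passed the filter on low counts, which left 14488 genes for testing. Livers came from male mice of a mixed 129Ola and C57BL6 background, labelled as 12 weeks old, kept in 12 h light and 12 h dark with free access to food. The 4 groups were wild-type and *Rev-erbα*-/- animals at Zeitgeber time (ZT) 8, which is in the light phase, and wild-type and *Rev-erbα*-/- animals at ZT20, which is in the dark phase, with 3 mice in each. *Rev-erbα*-/- mice lack the clock repressor REV-ERBα (gene symbol *Nr1d1*) in the whole body, so that an effect in the liver cannot be told apart from an effect of other organs on the liver. Each mouse gave 1 poly(A) RNA library, and whole liver tissue was used. In such tissue, fewer cells of a type and less RNA per cell cannot be told apart.

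Most tryptophan that is not used for protein is broken down in the liver through the kynurenine route. TDO2 or an indoleamine dioxygenase opens the indole ring, AFMID releases kynurenine, KMO hydroxylates it, KYNU cleaves the product, and HAAO makes an unstable intermediate that either closes to quinolinate, from which QPRT starts the synthesis of NAD, or is diverted by ACMSD towards complete oxidation. DDC, the aromatic L-amino acid decarboxylase, serves another branch: it makes serotonin from hydroxytryptophan and dopamine from DOPA. Like KYNU, it needs the vitamin B6 cofactor pyridoxal phosphate.

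Between 17641809 and 26060192 reads were counted on genes per library. Values are given as CPM, that is counts scaled to a common library size, with library sizes adjusted by TMM, a method that aligns the bulk of genes between libraries. In these libraries 3 counts correspond to between 0.117 and 0.167 CPM, far below the lowest member value. Reads counted on *Nr1d1* did not separate the genotypes at ZT8 (129, 96.2 and 75.3 CPM in wild-type and 63.0, 71.9 and 80.6 CPM in *Rev-erbα*-/- livers). A count over a whole gene includes exons that a deletion may leave in place, so this level does not check the labels. *Arntl*, which REV-ERBα represses, differed at ZT8 by 5.18 on the log2 scale, with 0.652 ± 0.181 CPM in wild-type and 24.2 ± 1.52 CPM in *Rev-erbα*-/- livers. Summed over 8 hepatocyte markers the libraries held between 66464 and 117347 CPM, while 5 kidney tubule markers, from an organ that also expresses several members, summed to at most 0.0885 CPM. Alignments to several places, which are not in the gene counts, numbered between 1.76 and 3.28 per counted read at ZT8 and between 1.24 and 1.67 at ZT20. This quantity therefore moved with the time point, and its part in the differences between times was not tested. Within wild-type livers at ZT8 it was lowest in replicate 1, and 8 of the 9 members had their highest value of that group in replicate 1, against 38.4% of all tested genes.

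The stretches just before the transcription starts of *Ddc* are shown because this gene had the widest range among the members, with group means that differed up to 4.52-fold. The 250 bases before each start were taken from RefSeq (GRCm38.p6, the same build as mm10) and are printed 5′ to 3′ on the strand of the gene. Capitals mark AGGTCA, the core of the element that REV-ERBα binds, which here lies on the opposite strand and reads TGACCT.

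Ddc, first listed start, chr11:11898145-11898394, minus strand: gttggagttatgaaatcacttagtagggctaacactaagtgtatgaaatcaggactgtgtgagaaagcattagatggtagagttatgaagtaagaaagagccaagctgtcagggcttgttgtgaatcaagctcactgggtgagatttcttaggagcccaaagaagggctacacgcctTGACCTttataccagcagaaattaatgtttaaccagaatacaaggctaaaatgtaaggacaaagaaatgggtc

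Ddc, second listed start, chr11:11890409-11890658, minus strand: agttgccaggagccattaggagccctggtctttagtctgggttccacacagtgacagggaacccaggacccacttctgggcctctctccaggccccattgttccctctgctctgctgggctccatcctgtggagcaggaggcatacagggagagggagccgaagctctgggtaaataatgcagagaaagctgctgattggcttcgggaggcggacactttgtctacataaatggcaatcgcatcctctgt

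In the window of the first *Ddc* start the match lay 73 to 68 bases before the start. Among the other windows reported here, those of *Tdo2* (6 to 1 bases before the start) and *Haao* (58 to 53 bases) held the same letters, whereas those of *Afmid*, *Kmo*, *Qprt* and the second *Ddc* start did not. The windows of *Tdo2* and *Haao* lay wholly in annotated exons (250 of 250 bases). Those of *Afmid*, *Kmo* and *Qprt* held 205, 197 and 197 exon bases, and both windows of *Ddc* held 0. No window was found for *Ido2* and *Kynu*. AGGTCA on either strand is common, with a match in 14% of 32851 windows of the same length. The full RORE (0.332% of all windows), the E-box CACGTG (6.02%), the D-box TTATGTAA (0.819%) and the palindromic glucocorticoid response element (0.387%), each searched on both strands, had no match in any of these windows. The same search found AGGTCA in the window of *Nfil3*, and neither AGGTCA nor the full RORE in the 2 windows of *Arntl*. Matches and missing matches describe letters in a window, not binding.

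*Ddc* was the member with the largest difference between the genotypes, and the difference lay at ZT8. The gene (mm10 chr11:11814101-11898144, minus strand) had 42.5, 38.4 and 31.7 CPM in wild-type livers at ZT8 and 136, 143 and 128 CPM in *Rev-erbα*-/- livers at the same time. At ZT20 it had 153, 160 and 197 CPM in wild-type and 165, 143 and 150.3 CPM in *Rev-erbα*-/- livers. Wild-type livers at ZT8 thus stood alone at a low level, and the other 3 groups lay close together. The means were 37.5 ± 5.45, 135 ± 7.66, 169.7 ± 23.6 and 153 ± 10.9 CPM (SD, n = 3), in the order wild-type and *Rev-erbα*-/- at ZT8, then wild-type and *Rev-erbα*-/- at ZT20.

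In wild-type animals *Ddc* was 4.52-fold higher at ZT20 than at ZT8 (log2 difference 2.18, SE 0.12, edgeR adjusted p = 6.24e-09). In *Rev-erbα*-/- animals the same comparison gave a log2 difference of 0.17 (95% interval -0.06 to 0.41, adjusted p = 0.307), although the 3 values at ZT20 were all above the 3 values at ZT8. The genotype effect at ZT8 was 1.85 on the log2 scale (SE 0.11, adjusted p = 1.45e-07), and at ZT20 it was -0.15 on the log2 scale (95% interval -0.39 to 0.08, adjusted p = 0.592). The difference of these effects, which is the same quantity as the difference in the day-night change between the genotypes, was 2.00 on the log2 scale (SE 0.16, 95% interval 1.67 to 2.34, adjusted p = 1.97e-06). With 3 mice against 3 an exact permutation test of a single gene cannot give less than p = 0.1, which it gave for *Ddc* at ZT8 (two-sided). The genotype effect at ZT8, the change in wild-type livers and the interaction passed the threshold in every alternative that was run.

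**Figure D1:**
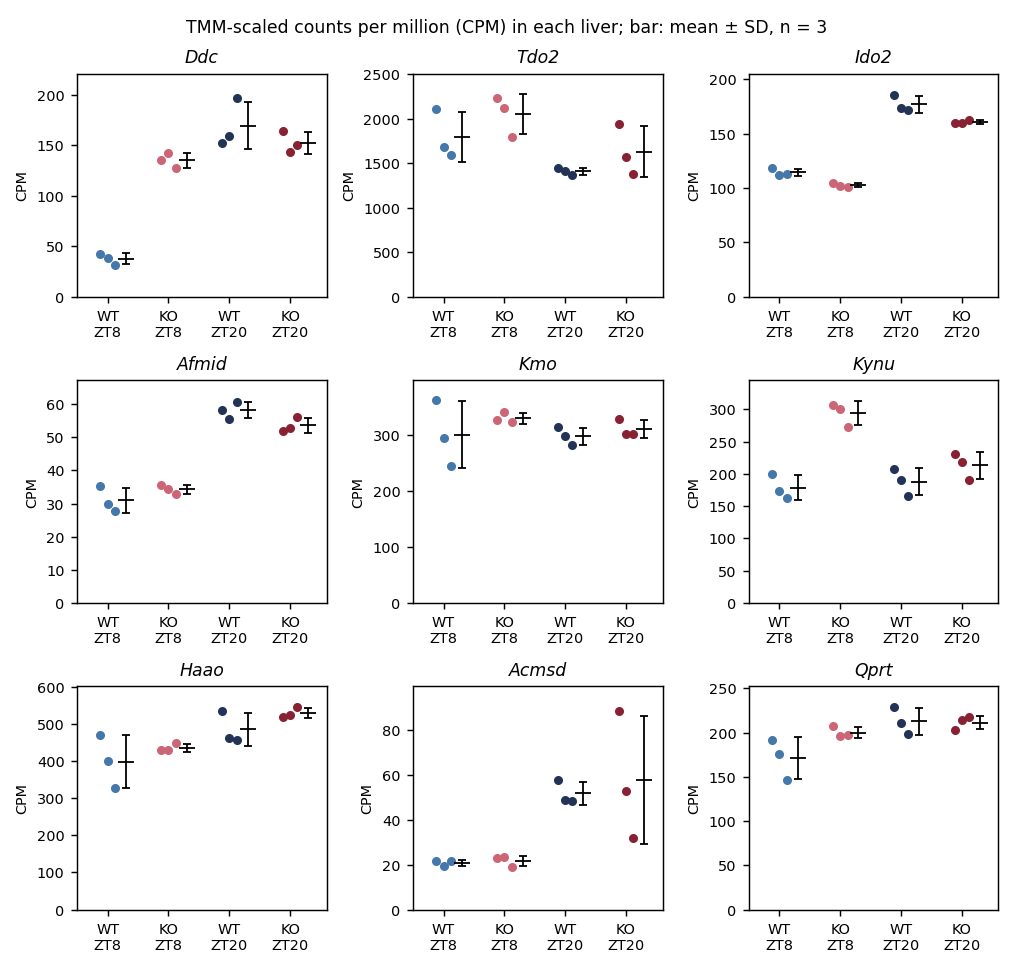
Each panel shows 1 gene, with TMM-scaled CPM on a linear axis from 0 and 1 point per liver in the 4 groups (WT, wild-type, KO, *Rev-erbα*-/-), and bars give the mean ± SD of 3 mice. The 3 wild-type livers at ZT8 lie between 31.7 and 42.5 CPM for *Ddc*, below every other liver, and *Kynu* is highest in the 3 *Rev-erbα*-/- livers at ZT8.

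At ZT8 *Ddc* and *Kynu* were higher in *Rev-erbα*-/- livers, and no member was lower. This is 2 of 9 members, where 8.45% of all 14488 tested genes passed the threshold of 0.05 on the adjusted p-value in either direction, 4.4% as higher and 4.04% as lower. At ZT20 none of the 9 members passed in edgeR or in DESeq2, against 3.63% of all genes (2.09% higher and 1.54% lower), and 1 of them, *Ido2*, had an unadjusted p below 0.05. The median log2 fold change of the members was 0.15 at ZT8 and 0.06 at ZT20, where all tested genes had medians of 0.00 at both times. The values of the genotypes did not overlap for 4 members at ZT8 (*Ddc*, *Ido2*, *Kynu* and *Qprt*) and for 1 at ZT20 (*Ido2*), and this was so for 25.6% and 22.5% of all genes. Genotype effects at both times refer to different mice, so that each ZT has its own controls.

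**Figure D2:**
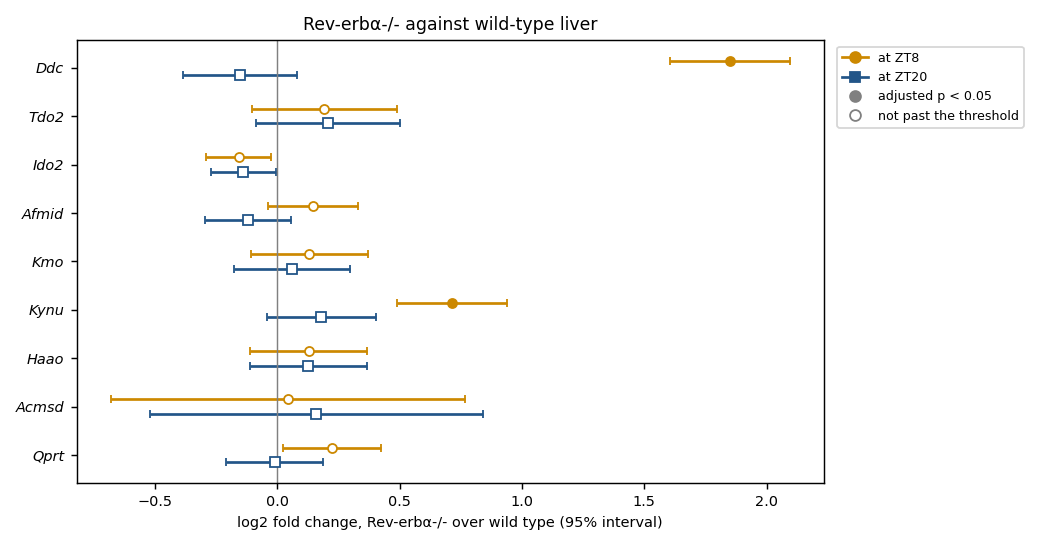
The log2 fold change of *Rev-erbα*-/- over wild-type livers is plotted for each member at ZT8 (circles) and ZT20 (squares), with 95% intervals from the edgeR fit and filled symbols for adjusted p below 0.05. *Ddc* (1.85) and *Kynu* (0.71) at ZT8 are the filled symbols, and every interval at ZT20 except that of *Ido2* includes 0.

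The entry step is shared by 2 ring-opening enzymes, of which *Ido2* rose at ZT20 and *Tdo2* did not pass in any comparison. *Tdo2* (chr3:81957090-81976202, minus strand), which encodes the main hepatic tryptophan dioxygenase, was the most abundant member by far. It had 2114, 1679 and 1588 CPM in wild-type and 2231, 2123 and 1797 CPM in *Rev-erbα*-/- livers at ZT8. At ZT20 the values were 1447, 1414 and 1369 CPM in wild-type and 1939, 1566 and 1378 CPM in *Rev-erbα*-/- livers. Its genotypes overlapped at both times, with log2 fold changes of 0.19 (95% interval -0.10 to 0.49) at ZT8 and 0.21 (95% interval -0.09 to 0.50) at ZT20. Wild-type livers had a log2 difference of ZT20 from ZT8 of -0.35 (adjusted p = 0.0759) and *Rev-erbα*-/- livers one of -0.33 (adjusted p = 0.116), and neither passed. In wild-type livers this call depended on the method, since DESeq2 on all 12 samples gave an adjusted p of 0.0429. Without *Rev-erbα*-/- ZT20 replicate 1, the highest library of its group, edgeR gave adjusted p-values of 0.0487 in wild-type and 0.0338 in *Rev-erbα*-/- livers.

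*Ido2* (chr8:24531892-24576333, minus strand), the indoleamine dioxygenase that the liver expresses, rose at ZT20 in both genotypes. It had 118, 112 and 113 CPM in wild-type and 105, 102 and 101 CPM in *Rev-erbα*-/- livers at ZT8. At ZT20 it had 186, 174 and 171 CPM in wild-type and 159.7, 160.2 and 163 CPM in *Rev-erbα*-/- livers. The rise amounted to 0.63 on the log2 scale in wild-type livers (SE 0.06, adjusted p = 3.72e-06) and to 0.65 in *Rev-erbα*-/- livers (SE 0.06, adjusted p = 9.40e-06). The 3 *Rev-erbα*-/- livers lay below the 3 wild-type livers at both times, by log2 differences of -0.16 (adjusted p = 0.140) at ZT8 and -0.14 (adjusted p = 0.314) at ZT20, which did not pass. Its group SDs were at most 7.76 CPM, small relative to its level. *Ido1*, its neighbour at a distance of 7803 bases, had 2 reads in 1 of the 12 libraries and none in the others.

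*Afmid* (chr11:117825924-117839908, plus strand), the formamidase that releases kynurenine, also rose at ZT20 in both genotypes. Its values at ZT8 were 35.2, 29.9 and 27.7 CPM in wild-type and 35.7, 34.3 and 32.8 CPM in *Rev-erbα*-/- livers. At ZT20 they were 58.2, 55.6 and 60.5 CPM in wild-type and 51.8, 52.7 and 56.1 CPM in *Rev-erbα*-/- livers. Wild-type livers rose by 0.91 on the log2 scale (SE 0.08, adjusted p = 1.77e-06) and *Rev-erbα*-/- livers by 0.64 (SE 0.08, adjusted p = 0.000123). The difference between these rises was 0.26 (95% interval 0.01 to 0.52, adjusted p = 0.230), and it passed only without wild-type ZT8 replicate 1 (0.36, adjusted p = 0.0434). Of the exon bases of *Afmid*, 46.6% are shared with other annotated genes, *Gm20708* on the same strand and *Tk1* on the opposite one. Reads in shared bases were not assigned to any gene by the counting, which did not use strand, so that the level of *Afmid* is an underestimate. *Tk1*, a thymidine kinase gene that overlaps *Afmid* by 168 bases at the starts of both genes, rose by 0.46 (adjusted p = 0.00373) in wild-type livers, and *Gm20708* had at most 2 reads in any library.

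The middle of the pathway held the other member with a genotype effect. *Kynu* (chr2:43555329-43682715, plus strand), the kynureninase, had 200.4, 173 and 163 CPM in wild-type and 307, 301 and 272 CPM in *Rev-erbα*-/- livers at ZT8. At ZT20 it had 207, 191 and 166 CPM in wild-type and 231, 218 and 189.8 CPM in *Rev-erbα*-/- livers. The 3 *Rev-erbα*-/- livers at ZT8 stood above all 9 others. Their difference from wild-type livers was 1.64-fold (log2 0.71, SE 0.10, adjusted p = 0.000608), whereas at ZT20 it was 0.18 (95% interval -0.04 to 0.40, adjusted p = 0.473).

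In wild-type livers the log2 difference of *Kynu* between the times was 0.07 (95% interval -0.15 to 0.29), which did not pass, and it fell at ZT20 in *Rev-erbα*-/- livers (-0.46, SE 0.10, adjusted p = 0.00676). The difference between the genotype effects was 0.53 (SE 0.15, 95% interval 0.22 to 0.85, adjusted p = 0.0448). This interaction call was weak: it was lost with upper-quartile scaling (adjusted p = 0.0618) and when any 1 of 8 libraries was left out, namely wild-type ZT8 replicates 2 and 3, *Rev-erbα*-/- ZT8 replicates 1 and 2, wild-type ZT20 replicates 1 and 2, and *Rev-erbα*-/- ZT20 replicates 2 and 3. Over all alternatives the interaction of *Kynu* ranged from 0.46 to 0.62, with adjusted p-values between 0.00707 and 0.121. The genotype effect at ZT8 and the fall in *Rev-erbα*-/- livers passed in every alternative.

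*Kmo* and *Haao*, the monooxygenase before and the dioxygenase after kynureninase, passed in none of the comparisons of the edgeR fit over all 12 libraries. *Kmo* (chr1:175620381-175662116, plus strand) had group means of 300.0 ± 58.9, 329 ± 9.36, 297 ± 15.3 and 309.8 ± 15.2 CPM, in the order used for *Ddc*. Its largest group mean exceeded its smallest by 1.11-fold, the narrowest range among the members. *Haao* (chr17:83831156-83847963, minus strand) had 399 ± 71.0, 436 ± 10.4, 485 ± 43.5 and 530.1 ± 14.0 CPM in the same order. Its log2 difference of ZT20 from ZT8 was 0.28 in both genotypes, with adjusted p-values of 0.0744 in wild-type and 0.1004 in *Rev-erbα*-/- livers. Without wild-type ZT8 replicate 1, which at 469 CPM was above the 400.2 and 327 CPM of its group, these differences were 0.41 (adjusted p = 0.00709) and 0.28 (adjusted p = 0.0390). The second of them also passed without wild-type ZT8 replicate 3 (adjusted p = 0.0424) and in a fit on the 6 *Rev-erbα*-/- samples alone, by edgeR (adjusted p = 0.0296) and by DESeq2 with its fold-change prior (log2 0.27, adjusted p = 0.00366).

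At the end of the route stand the enzyme that diverts carbon from quinolinate and the enzyme that uses quinolinate, and both mRNAs were higher at ZT20 in wild-type livers. *Acmsd* (chr1:127729413-127767978, plus strand) had 21.7, 19.4 and 21.8 CPM in wild-type and 22.8, 23.2 and 18.9 CPM in *Rev-erbα*-/- livers at ZT8. At ZT20 it had 57.8, 49.0 and 48.3 CPM in wild-type and 88.6, 52.7 and 31.9 CPM in *Rev-erbα*-/- livers. All livers at ZT20 were above all livers at ZT8, and the 3 *Rev-erbα*-/- livers at ZT20 were far apart. Their coefficient of variation was 49.7%, where the median over all tested genes was 8.66% in that group and 96.7% of genes varied less. *Acmsd* rose 2.46-fold at ZT20 in wild-type livers (log2 1.30, SE 0.31, adjusted p = 0.0143) and 2.67-fold in *Rev-erbα*-/- livers (log2 1.42, SE 0.31, adjusted p = 0.0149). The call in wild-type livers was lost without wild-type ZT8 replicate 2 (log2 1.25, adjusted p = 0.0527). The call in *Rev-erbα*-/- livers was lost without *Rev-erbα*-/- ZT8 replicate 3 (log2 1.33, adjusted p = 0.0544) and in a fit on the 6 *Rev-erbα*-/- samples alone (adjusted p = 0.0897). Without *Rev-erbα*-/- ZT20 replicate 1 the rise in *Rev-erbα*-/- livers remained past the threshold at a lower size, and over all alternatives it ranged from 0.89 to 1.71. The genotypes overlapped at both times, with intervals of -0.68 to 0.77 at ZT8 and -0.52 to 0.84 at ZT20. Both intervals, and the SE of 0.31 for the rises, rest on a spread estimated over all 4 groups together. That spread includes the widely scattered *Rev-erbα*-/- livers at ZT20. Wild-type livers at ZT8 varied less (coefficient of variation 6.37%), as did *Rev-erbα*-/- livers at that time (11.0%). The interval at ZT8 thus does not describe the scatter of the ZT8 livers alone. Differences between the genotypes within these intervals were not detectable with this fit. Of the exon bases of *Acmsd* 3.32% are shared with a gene on the opposite strand.

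*Qprt* (chr7:127107114-127122226, minus strand), which commits quinolinate to NAD, had 192, 176 and 146 CPM in wild-type and 207, 196 and 197 CPM in *Rev-erbα*-/- livers at ZT8. At ZT20 it had 229, 210.3 and 198 CPM in wild-type and 203, 214 and 217 CPM in *Rev-erbα*-/- livers. As with *Ddc*, *Afmid*, *Kynu*, *Haao* and *Acmsd*, wild-type livers at ZT8 had the lowest group mean. No value of *Qprt* in these livers reached those of *Rev-erbα*-/- livers. The genotype effect at ZT8, 0.22 on the log2 scale, did not pass (adjusted p = 0.160), but it did so without wild-type ZT8 replicate 1 (0.31, adjusted p = 0.0389). In wild-type livers *Qprt* rose at ZT20 by 0.31 (SE 0.09, adjusted p = 0.0214), and in *Rev-erbα*-/- livers the log2 difference was 0.08 (95% interval -0.12 to 0.28). The call in wild-type livers was lost without wild-type ZT8 replicate 2 (adjusted p = 0.0511) or 3 (adjusted p = 0.0984, log2 0.21), without wild-type ZT20 replicate 1 (adjusted p = 0.0950) or 2 (adjusted p = 0.0541), and in a fit on the 6 wild-type samples alone (adjusted p = 0.0544). The difference between the genotypes in this change was 0.23 (95% interval -0.05 to 0.51, adjusted p = 0.354).

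The log2 ratio of *Acmsd* to *Qprt* CPM within a liver describes how the competing mRNAs stood to each other. At ZT8 wild-type livers had a ratio of -3.02 ± 0.24 and *Rev-erbα*-/- livers one of -3.21 ± 0.15. At ZT20 the ratio was -2.04 ± 0.06 for wild-type livers and -1.99 ± 0.79 for *Rev-erbα*-/- livers, where the 3 animals had -1.19, -2.02 and -2.77. *Acmsd* was the lower of both in every liver, and its share was higher at ZT20, apart from *Rev-erbα*-/- ZT20 replicate 3, which at -2.77 was beside the highest liver at ZT8 (-2.75). No test was made on this ratio, which combines values already described.

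**Figure D3:**
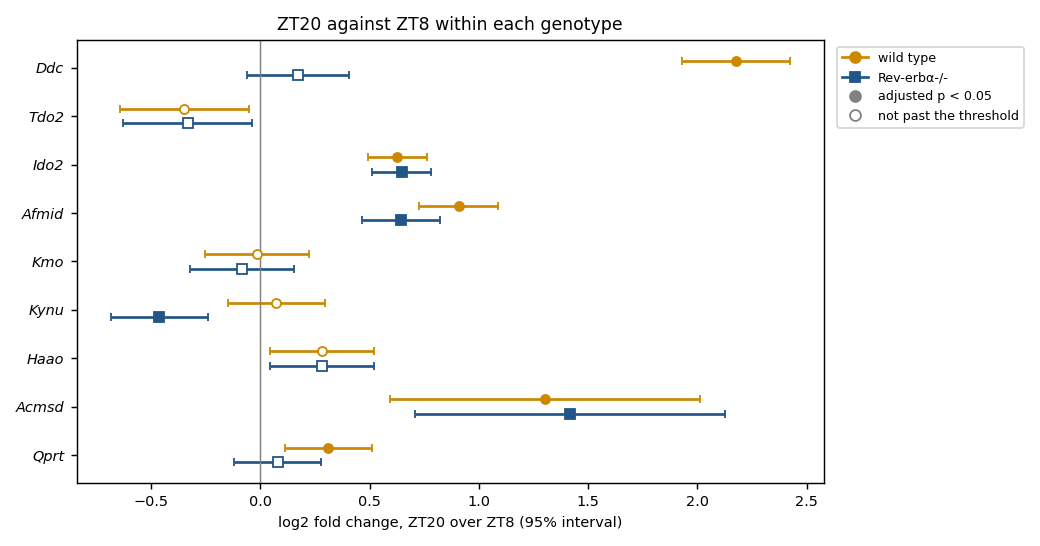
The log2 fold change of ZT20 over ZT8 is plotted for each member in wild-type (circles) and *Rev-erbα*-/- livers (squares), with 95% intervals and filled symbols for adjusted p below 0.05. *Ddc* is at 2.18 in wild-type and at 0.17 in *Rev-erbα*-/- livers, whereas *Ido2*, *Afmid* and *Acmsd* are filled on the right side in both genotypes and *Kynu* is filled on the left in *Rev-erbα*-/- livers.

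Between the times, 5 members rose at ZT20 in wild-type livers (*Ddc*, *Ido2*, *Afmid*, *Acmsd* and *Qprt*) and none fell, where 27.7% of all genes changed, 13.8% up and 13.9% down. In *Rev-erbα*-/- livers 3 members rose (*Ido2*, *Afmid* and *Acmsd*) and *Kynu* fell, where 17.5% of all genes changed, 8.79% up and 8.67% down. Groups did not overlap between the times for 6 members in each genotype, against 42.3% of all genes in wild-type and 35% in *Rev-erbα*-/- livers. The interaction passed for *Ddc* and *Kynu*, 2 of 9 members, against 5.88% of all genes (3.05% with a positive and 2.83% with a negative difference). For *Ido2*, *Tdo2* and *Haao* it was estimated at -0.02, -0.02 and 0.00, with 95% intervals reaching -0.21 to 0.17, -0.43 to 0.40 and -0.34 to 0.34. Both comparisons between times share their libraries with the genotype comparisons, so that a low wild-type group at ZT8 enters 3 of the quantities at once.

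Levels were compared between genes per kilobase of annotated exon sequence. On this scale *Tdo2* was first in every group, between 363 ± 10.1 CPM per kilobase in wild-type livers at ZT20 and 528 ± 58.2 in *Rev-erbα*-/- livers at ZT8, and *Haao* was second. In wild-type livers at ZT8, *Haao* (85.2 ± 15.2), *Qprt* (64.8 ± 8.79) and *Kmo* (63.5 ± 12.5) followed each other within their spread, as did *Ido2* (31.5 ± 0.936) and *Kynu* (29.1 ± 3.16). *Afmid* (8.74 ± 1.10), *Ddc* (8.41 ± 1.22) and *Acmsd* (7.41 ± 0.472) came last, and on this length *Ddc* and *Acmsd* did not differ beyond their spread between mice. The value of *Afmid* is an underestimate, because the 46.6% of its exon bases that are shared enter the length but hold no counted reads. Its place beside *Ddc* and *Acmsd* is therefore not settled. In *Rev-erbα*-/- livers at ZT8 *Ddc* was at 30.3 ± 1.72 CPM per kilobase, above *Ido2* at 28.2 ± 0.522, and it was at 38.0 ± 5.30 in wild-type livers at ZT20. The order of the middle and lower ranks depends on which transcript length is used, since 18 of 36 ranks moved by 1 or more places with the longest transcript in place of all exons, but *Tdo2* and *Haao* kept the first places. With that length wild-type livers at ZT8 had 18.6 for *Ddc* and 7.72 for *Acmsd*, and 64.4 for *Kynu* and 35.7 for *Ido2*. *Haao* was then at 128, and *Qprt* and *Kmo* were at 83.6 and 81.7. The spread between mice does not cover this choice of length.

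Genes outside the members were taken from 7 lists of tryptophan, aromatic amino acid, cofactor and receptor genes. Of 54 such genes 43 were tested, and 3 differed between the genotypes at ZT8 (1 higher and 2 lower) and 4 at ZT20 (3 higher and 1 lower). These are 6.98% and 9.30% of the tested listed genes, beside 8.45% and 3.63% of all genes. Without wild-type ZT8 replicate 1 the count at ZT8 was 10 of 43, where 12.3% of all genes passed.

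Among them were 4 genes of aminotransferases that can turn kynurenine into kynurenic acid and that depend on pyridoxal phosphate as DDC and KYNU do. *Aadat* and *Ccbl1* passed in opposite directions at ZT8, whereas *Ccbl2* and *Got2* did not pass in either genotype comparison. *Ccbl2* had 64.6 ± 6.75 CPM in wild-type and 46.6 ± 8.01 CPM in *Rev-erbα*-/- livers at ZT8 (log2 -0.47, adjusted p = 0.474). At ZT20 its values were 107 ± 32.8 and 47.2 ± 20.8 CPM (log2 -1.18, adjusted p = 0.138), and the genotypes did not overlap at either time. *Got2* had 182 ± 22.6 and 197 ± 4.78 CPM at ZT8 (log2 0.11, adjusted p = 0.475) and 203 ± 13.9 and 220.2 ± 4.16 CPM at ZT20 (log2 0.11, adjusted p = 0.622). *Aadat* had 166, 171 and 176 CPM in wild-type and 224, 264 and 246 CPM in *Rev-erbα*-/- livers at ZT8. At ZT20 it had 95.3, 97.8 and 90.8 CPM in wild-type and 193, 152 and 167 CPM in *Rev-erbα*-/- livers. It was thus higher without REV-ERBα at both times, by 1.43-fold at ZT8 (log2 0.52, SE 0.09, adjusted p = 0.00196) and 1.80-fold at ZT20 (log2 0.85, SE 0.09, adjusted p = 4.46e-05). It fell at ZT20 in both genotypes, by 0.85 on the log2 scale in wild-type and by 0.52 in *Rev-erbα*-/- livers. The difference between its genotype effects was -0.33 (95% interval -0.60 to -0.07, adjusted p = 0.146) and did not pass.

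*Ccbl1* (also named *Kyat1*) had 127, 145 and 142 CPM in wild-type and 109.9, 104 and 96.7 CPM in *Rev-erbα*-/- livers at ZT8, a fall by 0.42 on the log2 scale (SE 0.08, adjusted p = 0.00417). At ZT20 the difference was -0.19 (95% interval -0.36 to -0.03, adjusted p = 0.237), again with no overlap between the genotypes. *Ccbl1* rose at ZT20 by 0.64 in wild-type and 0.86 in *Rev-erbα*-/- livers, the direction opposite to that of *Aadat*. The calls of *Aadat* at both times and of *Ccbl1* at ZT8 passed in all 19 alternatives.

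**Figure D4:**
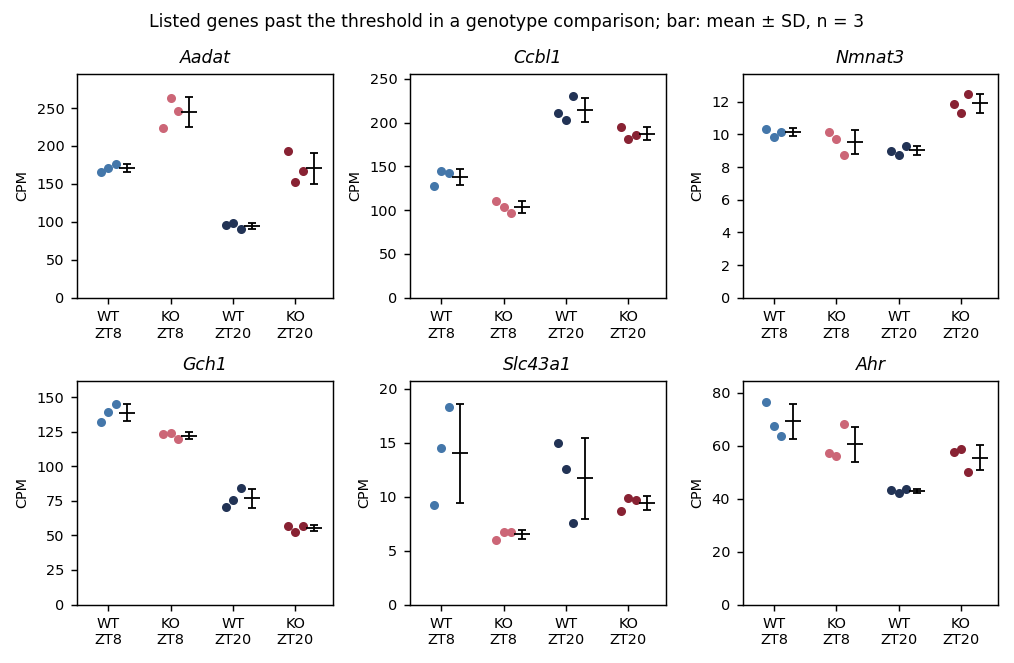
Panels show the 6 listed genes outside the members that passed the threshold in a genotype comparison, with CPM on a linear axis from 0, 1 point per liver and the mean ± SD of 3 mice. *Aadat* is higher and *Ccbl1* lower in *Rev-erbα*-/- (KO) than in wild-type (WT) livers at both times, without overlap, although the difference of *Ccbl1* at ZT20 did not pass.

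Of the genes for cofactors, *Gch1*, which encodes the first enzyme of tetrahydrobiopterin synthesis, fell in *Rev-erbα*-/- livers at ZT20 by 0.47 on the log2 scale (76.8 ± 6.67 against 55.4 ± 2.47 CPM, adjusted p = 0.00144). At ZT8 it had 139 ± 6.36 and 122 ± 2.28 CPM (-0.18, adjusted p = 0.137). None of the 3 vitamin B6 genes and none of the 6 genes for the breakdown of other aromatic amino acids passed at either time. Among the latter *Tat*, a classical target of glucocorticoids that encodes tyrosine aminotransferase, had 1294 ± 65.2 CPM in wild-type and 1028 ± 51.2 CPM in *Rev-erbα*-/- livers at ZT8 (-0.33, adjusted p = 0.0703).

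The remaining calls in genotype comparisons were less stable. *Nmnat3*, which encodes an enzyme of NAD synthesis, was higher in *Rev-erbα*-/- livers at ZT20 (9.01 ± 0.275 against 11.9 ± 0.578 CPM, log2 0.40, adjusted p = 0.0289). *Ahr*, the receptor that several kynurenine products can activate, was also higher at ZT20 (43.0 ± 0.732 against 55.4 ± 4.64 CPM, log2 0.37, adjusted p = 0.0382), with an interaction of -0.56 (adjusted p = 0.0177). Of the 7 tested genes on the list of this receptor and its targets, *Ahr* alone passed at ZT20. The interaction passed for 2 of the 7, 1 with a positive and 1 with a negative difference, beside 5.88% of all genes. The median log2 fold change of that list at ZT20 was -0.16. *Slc43a1*, an amino acid transporter, was lower at ZT8 (14.0 ± 4.55 against 6.50 ± 0.414 CPM, log2 -1.10, adjusted p = 0.0291), and its wild-type livers ranged from 9.23 to 18.3 CPM. The calls of *Nmnat3* and *Ahr* passed in 11 of 19 alternatives each and that of *Slc43a1* in 12 of 19. Each of the 6 libraries at ZT20 except *Rev-erbα*-/- replicate 3 was needed for the call of *Ahr*, all 6 were needed for that of *Nmnat3*, and all libraries at ZT8 except wild-type replicate 1 were needed for that of *Slc43a1*, with adjusted p-values of at most 0.170, 0.135 and 0.103 without one of them. Besides, *Ahr* was at 0.0615 without wild-type ZT8 replicate 2 and at 0.0501 without *Rev-erbα*-/- ZT8 replicate 2. The interaction of *Ahr* passed in 14 of 17 alternatives, and was not called without *Rev-erbα*-/- ZT8 replicate 2 (adjusted p = 0.0603), wild-type ZT20 replicate 2 (0.0569) or *Rev-erbα*-/- ZT20 replicate 2 (0.0609).

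Reads for other genes of monoamine synthesis were few or absent. *Th*, *Tph2*, *Dbh* and *Asmt* had no read in any of the 12 libraries, which allows up to 0.167 CPM in the shallowest of them, and *Tph1* had 3 reads in all. Of the 11 genes for monoamine synthesis and breakdown 4 were tested, and none differed between the genotypes at either time.

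The genes whose levels over the 12 livers were most like *Ddc*, by Pearson's r of log2(CPM + 0.5), were *Arntl* (0.986), *Nedd4l* (0.986), *Spg20* (0.983), *Chka* (0.982), *Cdkn1a* (0.981), *Sumo3*, *Net1*, *Nfil3*, *Tnk2* and *Mical2* (0.976). These coefficients are descriptions over livers that fall into 4 groups and were picked as the highest among all tested genes. All 10 were also among the first 10 with size factors in place of TMM. What they shared was the low wild-type group at ZT8. *Nfil3*, which encodes a repressor of the clock network, had 12.1 ± 0.733 CPM there and between 49.7 ± 1.21 and 59.5 ± 0.860 CPM in the other groups. *Cdkn1a*, the cell cycle inhibitor p21, had 2.48 ± 0.482 CPM there and between 30.5 ± 6.28 and 48.1 ± 8.32 CPM elsewhere.

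**Figure D5:**
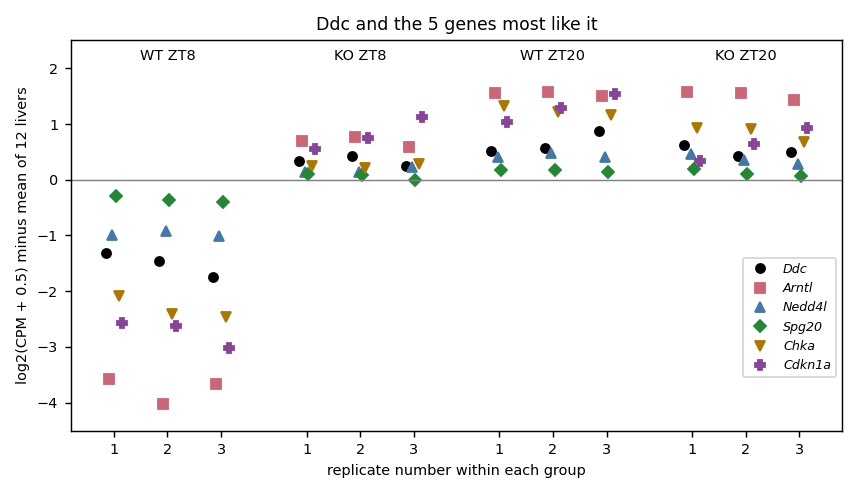
The log2(CPM + 0.5) of *Ddc* and the 5 genes most like it is plotted for each liver after subtraction of the mean of that gene over the 12 livers, with the replicate number on the x axis and the groups side by side (WT, wild-type, KO, *Rev-erbα*-/-). All 6 genes are below 0 in the 3 wild-type livers at ZT8 and above 0 in the other 9, and the size of the step differs between the genes, with *Arntl* the widest and *Spg20* the narrowest.

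The other members had other companions. Those of *Ido2* were *Lingo4* (0.986) and *Grb7* (0.986). *Afmid* was most like *Tmem150a* (0.990), *P2ry4* and *Slc44a1*. *Kynu* was most like *B2m* (0.947), *Cela1* and *Rnmtl1*, and *Tdo2* was most like *Trmt2b* (0.951), *Hcrtr2* and *Lect2*. *Haao* was most like *Got2* (0.981), a mitochondrial aminotransferase, followed by *Tubb4b* and *H2-Q1*. The first companions of *Kmo* were *Hdac1* (0.936), *Hsd3b7* and *Paics*, and those of *Qprt* were *Ttr*, *Qdpr* and *Cyp2c29*. In wild-type livers at ZT8 *Kmo*, *Qprt* and all of these companions fell from replicate 1 to replicate 3. *Hdac1* had 7.40, 3.74 and 2.19 CPM there, and *Ttr* had 6827, 5325 and 3686 CPM. The part of this order in the coefficients was not tested.

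*Acmsd* was most like *Calr* (0.990), *Pdia3* and *Gm14078*. *Calr* and *Pdia3* encode chaperones of the endoplasmic reticulum, and they varied over the same 3 *Rev-erbα*-/- livers at ZT20 as *Acmsd*. *Calr* had 1688, 1340.4 and 981 CPM in replicates 1, 2 and 3, and *Pdia3* had 969, 763 and 546 CPM, in the same order of livers as the 88.6, 52.7 and 31.9 CPM of *Acmsd*. In the other 3 groups the values of *Calr* lay within 751 to 784 CPM at ZT8 and 1178 to 1356 CPM in wild-type livers at ZT20.

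Among the members themselves, *Ido2* and *Afmid* followed each other most closely over the 12 livers (r = 0.937), followed by *Haao* and *Qprt* (0.908). After the group means were subtracted, *Haao* and *Qprt* had the highest value (0.935), and *Ido2* and *Afmid* had 0.524. *Ddc* was most like *Qprt* (0.805) and *Afmid* (0.760) and had an r of -0.21 with *Tdo2*. After the subtraction these values were 0.266, 0.678 and 0.528, so that the sign with *Tdo2* turned.

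Of the genes next to the members on the chromosome, *Grb10*, at 32364 bases from *Ddc*, differed in the same direction at ZT8. It had 5.43 CPM in wild-type and 9.31 CPM in *Rev-erbα*-/- livers (group means, log2 0.78, adjusted p = 0.0130) and a log2 difference of -0.04 at ZT20. The call at ZT8 was lost without *Rev-erbα*-/- ZT8 replicate 1 (adjusted p = 0.0548) or 2 (adjusted p = 0.0534). *Fignl1*, at 5139 bases on the other side of *Ddc*, had less than 1 CPM in every group mean and did not pass. *Zfp36l2* beside *Haao* was lower in *Rev-erbα*-/- livers at ZT8 (log2 -0.53, adjusted p = 0.0164) and *Asic5* beside *Tdo2* was lower at ZT20 (log2 -0.84, adjusted p = 0.0262), and neither call was stable. That of *Zfp36l2* was lost without replicate 2 or 3 of either genotype at ZT8 (adjusted p up to 0.0857), and that of *Asic5* without any wild-type library at ZT20 or *Rev-erbα*-/- ZT20 replicate 2 (adjusted p up to 0.116). No neighbour of *Kynu*, *Ido2*, *Afmid*, *Kmo*, *Acmsd* or *Qprt* passed in a genotype comparison.

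Markers of other cell types were compared beside the 2 members with a genotype effect. None of the 6 macrophage, 5 endothelial and 5 stellate cell markers passed at either time. Of 8 hepatocyte markers, *Hnf4a*, a transcription factor of hepatocytes, was higher in *Rev-erbα*-/- livers at ZT8 (log2 0.35, adjusted p = 0.0366). Of 5 cholangiocyte markers *Sox9* was higher at ZT8 (log2 1.20, adjusted p = 0.00126), with a sum over the list between 37.9 and 94.7 CPM in wild-type and between 53.6 and 69.8 CPM in *Rev-erbα*-/- livers. Of 5 pancreas acinar markers *Cela1* was higher at ZT8 (27.1 ± 1.42 against 53.9 ± 8.90 CPM, log2 0.99, adjusted p = 0.00828), whereas *Cpa1* and *Prss2* were at 0 in all 12 libraries. The summed hepatocyte markers ranged from 66464 to 88390.2 CPM in wild-type and from 74614 to 101869 CPM in *Rev-erbα*-/- livers at ZT8, and from 97194 to 117347 CPM at ZT20. The part of the markers in the member results was not tested.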

How the data were processed

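RNA of 12 mouse livers was analysed. Per the study's methods, poly(A) libraries were sequenced with reads of 75 bases, mapped to mm10 with TopHat, and reads with a unique position and an alignment quality of at least 10 were assigned to gene symbols by HTSeq-count in union mode, without use of strand. The authors deposited these raw counts per sample without normalization, filtering or pooling, together with 5 summary lines that were left out of library sizes. Reads that overlap exons of 2 genes are not counted. The authors' own test used DESeq2 1.6.3.

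From the counts, genes were filtered with filterByExpr and scaled with TMM. A quasi-likelihood model with 4 group means over all 12 samples was fitted in edgeR 4.0.16 (R 4.3.3), and p-values were adjusted over 14488 genes by the Benjamini-Hochberg method with a threshold of 0.05. SE and 95% intervals come from this fit, which was also tested on simulated data. Levels are CPM as mean ± SD of 3 mice. The members and lists were chosen with earlier results of these data known. Named were all members, listed genes called between genotypes, the genes most like each member, and neighbouring genes; *Tat*, the marker genes, the silent genes of monoamine synthesis and the details of *Calr* and *Pdia3* were named after their values were seen. Gene models were from GENCODE vM21, where 94.6% of tested symbols were found. A gene most like a member and a promoter window are not reported here. Alternatives were DESeq2 1.42.0, other scalings, no filter, 6-sample fits, a replicate block, a threshold of 0.01, and leaving out each library. Each p-value of this fit sets a difference against the spread between mice within groups, estimated over all 4 groups together and moderated across genes.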

Additional observations from a re-analysis of the deposited data

Results flagged for a closer look

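The genotype effect differed between the times for 2 members, by the interaction term of the edgeR fit. For *Ddc* the effect at ZT8 minus the effect at ZT20 was 2.00 on the log2 scale (adjusted p = 1.97e-06), with all 3 *Rev-erbα*-/- livers above all 3 wild-type livers at ZT8 and overlapping values at ZT20. It ranged from 1.87 to 2.09 over 17 alternatives and passed in all of them. For *Kynu* it was 0.53 (adjusted p = 0.0448), and it passed in 8 of 17 alternatives.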

How the results depend on the processing

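Of 837 values of members under an alternative, 806 kept their side of the threshold, 14 passed only under the alternative and 17 passed only in the fit reported. The 806 can include changes of direction where neither value passed, of which there were 101 over all named genes. No called value changed its sign. The 2 members with an interaction became 1 with upper-quartile scaling and 1 at an adjusted p of 0.01, and between 1 and 3 when libraries were left out in turn, where the third was *Afmid* without wild-type ZT8 replicate 1. Of all genes, 5.87% had an interaction with upper-quartile scaling, 2.46% at an adjusted p of 0.01, and between 3.35% and 8.56% when libraries were left out. The 5 members that changed between the times in wild-type livers became 3 at an adjusted p of 0.01, and between 3 and 6 when libraries were left out. Of all genes, 16.2% changed at an adjusted p of 0.01, and between 19.5% and 28.5% when libraries were left out. Without wild-type ZT8 replicate 2 the members that changed were 3, and the share of all genes was 19.8%, against 27.7% with all libraries. The cause was not tested. The counts of members in the other comparisons stayed within 1.5 times.

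Libraries with the same replicate number had low correlations of their deviations (between -0.0954 and 0.102 over 18 pairs, with 1 above 0.1). Among the members, replicate 1 was highest for 8 in wild-type livers at ZT8. It was highest for 5 in *Rev-erbα*-/- livers at ZT8 and for 7 in wild-type livers at ZT20. Replicate 3 was lowest for 7 members in each of these groups. Over all tested genes, replicate 1 was highest for 38.4%, 33.4% and 35.4% in these groups, in the order given. Replicate 3 was lowest for 37.3%, 35.3% and 37.1% of them. For *Rev-erbα*-/- livers at ZT20 the counts of members were 5 and 3, beside 37.3% and 36.6% of all tested genes. Low correlations do not exclude a shared order in a few genes, so whether the numbers pair the mice is not settled. With the replicate number as a block, 2 members passed at ZT8, 0 at ZT20, 2 in the interaction, 5 between the times in *Rev-erbα*-/- livers, and *Tdo2* passed between the times in wild-type (-0.33, adjusted p = 0.0330) and *Rev-erbα*-/- livers (-0.34, adjusted p = 0.0439). Of all genes, 8.35% passed with this block at ZT8, 3.31% at ZT20 and 5.74% in the interaction. Between the times 26.8% of all genes passed in wild-type and 16.6% in *Rev-erbα*-/- livers.

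Among the listed genes outside the members, the 3 calls at ZT8 became 5 and 6 with DESeq2, and the 3 interaction calls became 1 without the filter, 1 with the block and 0 at an adjusted p of 0.01. Of all genes, 11.3% passed at ZT8 with DESeq2 on 12 samples and 6.56% with its fold-change prior on 6 samples. In the interaction 3.70% of all genes passed without the filter, 5.74% with the block and 2.46% at an adjusted p of 0.01. When libraries were left out, the listed calls at ZT8 numbered up to 10, those at ZT20 down to 2 and those of the interaction between 0 and 6. The share of all genes then went up to 12.3% at ZT8 and down to 1.62% at ZT20. In the interaction it lay between 3.35% and 8.56%. The 4 calls at ZT20 became 2 and the 12 calls in *Rev-erbα*-/- livers between the times became 7 at an adjusted p of 0.01. At that threshold 1.54% and 8.50% of all genes passed in these comparisons. Groups of 3 mice and a biological coefficient of variation of 0.123 limit which differences can be detected.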
